A study of Jatropha curcas with 22 samples.

Results

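Jcr4S05404.40, Jcr4S00616.50 and Jcr4S01519.40 are 3 of the 57437 Jatropha curcas gene models counted in the series. The deposited descriptions name Jcr4S05404.40 and Jcr4S00616.50 as late embryogenesis abundant (LEA) proteins and Jcr4S01519.40 as a dehydrin. The 3 genes were chosen by their drought response in leaf or root in these same counts. Their drought contrasts are therefore given as a description with no test, and tests were kept to contrasts that hold no drought library. All 3 passed the filter on low counts in leaf, in root and over both organs.

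The plants were seedlings of a Cape Verde strain, 36 days old when the treatments began, and Jatropha curcas is a shrub grown for its seed oil. RNA came from young leaves and root tips, each library from a pool of 6 plants at days 0 and 49 or of 3 plants at days 13 and 52. In each organ the groups were a watered control and moderate drought (13 days without water) at day 13, severe drought (49 days) at day 49, rewatered plants at day 52 and a watered control labelled jointly as days 49 and 52, whose pool size the labels do not give. Leaf had a further watered control at day 0, which makes 11 groups of 2 libraries. The treatment protocol states 7 days of rewatering, whereas day 52 is 3 days after the last day without water. The labels do not say whether the libraries of a group came from separate pools of plants, so SDs and p-values measure the spread between these libraries, which may be technical.

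LEA proteins are small, very hydrophilic proteins, largely unfolded in solution, that accumulate in plant embryos as the seed dries. Many are also made in leaves and roots that lose water, where they are thought to shield enzymes and membranes. Dehydrins are a LEA family marked by a lysine-rich segment and are among the classic transcripts raised by dehydration, cold and abscisic acid (ABA), the hormone that signals water shortage. None of these roles was measured in the libraries described here.

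Libraries held 37104762 to 82215677 counted reads over 27394 to 40952 gene models with a read. The day 49/52 root controls had the most such gene models, 40952 and 38267, against 31702 to 36477 in the other root libraries. The part of this in the root contrasts with that control was not tested. The 18 leaf marker genes (chlorophyll a/b binding proteins and Rubisco small subunits) summed to between 10873 and 19384 CPM in the leaf libraries and to between 55.8 and 142 CPM in the root libraries. As a sum, the 8 root marker genes separated the organs poorly, at 269 to 336 CPM in leaf and 336 to 685 CPM in root. Gene by gene they differed more. In the day 13 controls 5 of 8 were called lower and 1 higher in leaf, with a median log2 fold change of -3.13, where 58.7% of all tested genes were called. CPM is the count scaled to a common library total, with totals adjusted by the trimmed mean of M-values (TMM) over all 22 libraries. In bulk RNA such as this, fewer cells of a type and less RNA per cell cannot be told apart.

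Jcr4S05404.40 was a low transcript in every watered or rewatered library and an abundant one under severe drought, in both organs. In leaf it was at 0.229 and 0.271 CPM in the day 0 controls, 0.427 and 0.948 CPM in the day 13 controls, and 0.799 and 1.10 CPM in the day 49/52 controls. Moderate drought leaves held 1.96 and 4.54 CPM, severe drought leaves 82.9 and 79.3 CPM, and rewatered leaves 0.460 and 0.478 CPM. Both moderate libraries lay above all 6 leaf controls, and the severe libraries lay far above the moderate ones. The 6 leaf control values rest on 12 to 46 reads each, and the severe values on 3556 and 3670 reads.

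In root tips Jcr4S05404.40 was at 2.60 and 1.12 CPM in the day 13 controls and at 0.616 and 0.449 CPM in the day 49/52 controls. Moderate drought roots held 5.84 and 5.09 CPM, severe drought roots 96.1 and 59.1 CPM, and rewatered roots 0.679 and 0.870 CPM. Severe root libraries stood above every other root library, and the moderate ones came next. Over the 11 groups the order by mean ran from severe leaf at 81.1 ± 2.58 CPM (SD, n = 2) and severe root at 77.6 ± 26.2 CPM, whose libraries overlapped, down to the day 0 leaf control at 0.250 ± 0.0295 CPM. The severe means were 325 and 311 times that lowest mean.

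Jcr4S00616.50 was far more abundant in watered roots than in watered leaves, and highest in both organs under severe drought. In leaf it was at 10.8 and 9.03 CPM in the day 0 controls, 10.4 and 17.2 CPM in the day 13 controls, and 21.6 and 28.2 CPM in the day 49/52 controls. Moderate drought leaves held 26.0 and 29.4 CPM, severe drought leaves 1362 and 855 CPM, and rewatered leaves 15.7 and 15.1 CPM. Severe leaf libraries stood apart from all others, while the moderate leaf libraries overlapped the day 49/52 controls.

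In root tips Jcr4S00616.50 was at 320 and 715 CPM in the day 13 controls and at 505 and 469.5 CPM in the day 49/52 controls. Moderate drought roots held 855 and 336 CPM, severe drought roots 15565 and 12077 CPM, and rewatered roots 1068 and 1741 CPM. The first moderate root library lay above all root controls and the second within their range, whereas both rewatered libraries lay above all root controls and both severe libraries far above those. In the severe root libraries the gene took 1.40% of all counted reads (95% exact binomial interval 1.396 to 1.403) and 1.11% (1.109 to 1.115), intervals that cover counting error only. In order of mean, severe root was highest at 13821 ± 2466 CPM (SD, n = 2) followed by rewatered root at 1405 ± 476 CPM, and rewatered root overlapped severe leaf at 1109 ± 358 CPM. All 5 root groups had higher means than every leaf group other than severe leaf.

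The dehydrin Jcr4S01519.40 was abundant in every library and moved over a much narrower range, peaking under moderate and not under severe drought. In leaf it was at 733 and 581 CPM in the day 0 controls, 439.9 and 573 CPM in the day 13 controls, and 788 and 654 CPM in the day 49/52 controls. Moderate drought leaves held 792 and 1234 CPM, severe drought leaves 394 and 314 CPM, and rewatered leaves 849 and 731 CPM. Both severe libraries lay below all 6 leaf controls, and both moderate libraries above them.

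In root tips the dehydrin was at 867 and 619.6 CPM in the day 13 controls and at 742 and 747 CPM in the day 49/52 controls. Moderate drought roots held 2426 and 1840 CPM, severe drought roots 1246 and 955 CPM, and rewatered roots 586 and 813 CPM. The moderate libraries were the highest of all 22, and the rewatered libraries lay on both sides of the day 49/52 controls. Its group means ran from 2133 ± 415 CPM (SD, n = 2) in moderate roots to 354 ± 56.6 CPM in severe leaves, a ratio of 6.02. Between these, the 7 groups from severe root at 1101 CPM to the root rewatered group at 699.7 CPM each overlapped the next lower group, so their order is not resolved beyond the spread of the libraries.

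**Figure D1:**
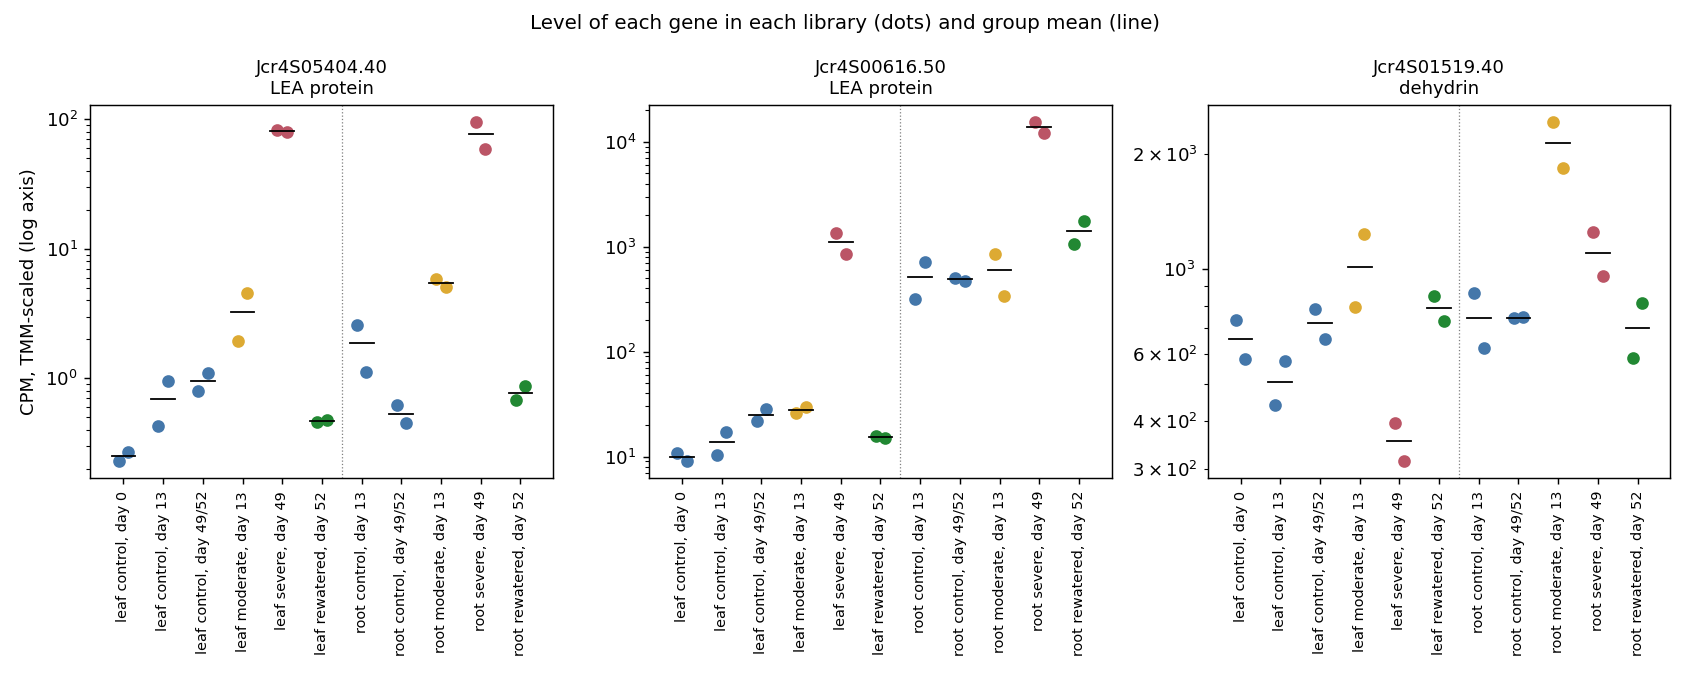
Level of each gene in each of the 22 libraries, in TMM-scaled CPM on a log axis that differs between panels. Dots are libraries, lines are means of the 2 libraries of a group, colours mark control, moderate, severe and rewatered groups, and the dotted line parts leaf from root. Jcr4S05404.40 reached 81.1 and 77.6 CPM under severe drought in leaf and root, Jcr4S00616.50 reached 13821 CPM in severe roots, and the dehydrin peaked at 2133 CPM in moderate roots.

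Levels of different genes were compared on the authors' RPKM, which scales reads by gene length, as ranks among the gene models with a read in the same library. The label "well expressed" held for the dehydrin, which ranked between 11 and 234, with an RPKM percentile of at least 99.2 in every library. It held for Jcr4S00616.50 in root, where its rank was between 1 and 50, at ranks 1 and 2 in the severe libraries. In watered and rewatered leaves Jcr4S00616.50 ranked between 1794 and 5834, and in severe leaves 10 and 15. For Jcr4S05404.40 the label held under severe drought alone: its rank there was 645 to 1070, against 11162 to 19817 in all other libraries. Its RPKM percentile was 29.2 to 38.7 in the watered leaf controls and 49.1 to 56.7 in the day 13 root controls.

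**Figure D2:**
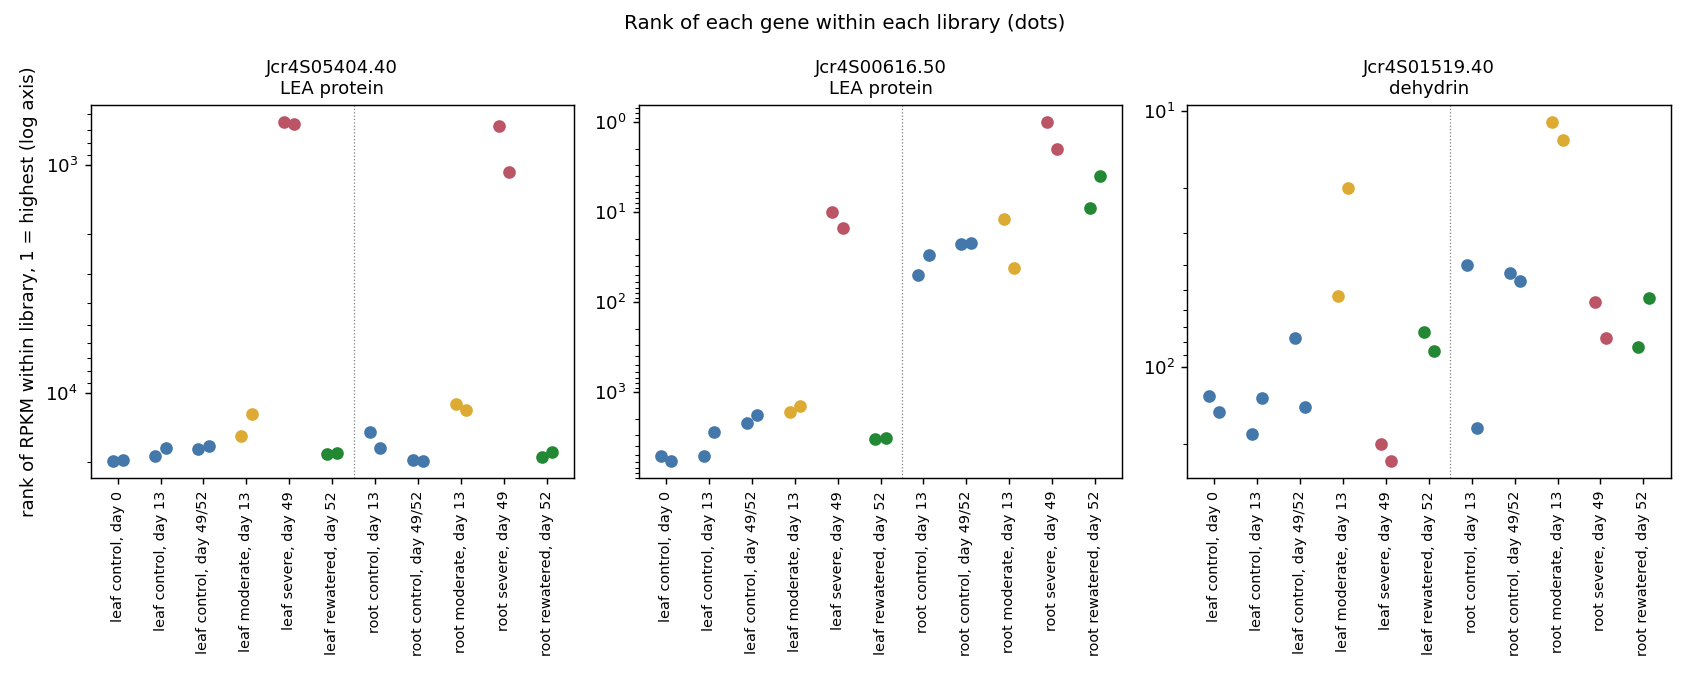
Rank of each gene by deposited RPKM within each library, with rank 1 at the top of a log axis that differs between panels. Dots are libraries, coloured by treatment, and the dotted line parts leaf from root. Jcr4S00616.50 held ranks 1 and 2 in the severe root libraries, the dehydrin stayed within the first 234, and Jcr4S05404.40 moved from ranks of 11162 or more to between 645 and 1070 under severe drought.

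The size of the drought contrasts follows from these levels and carries no test, since drought response chose the genes. Severe drought was compared with the day 49/52 control of the same organ, moderate drought with the day 13 control. For Jcr4S05404.40 the log2 fold change was 2.28 (SE 0.419) in moderate leaves and 6.39 (SE 0.443) in severe leaves, the latter an 84.0-fold higher level. In roots it was 1.56 (SE 0.393) under moderate and 7.12 (SE 0.496) under severe drought, the latter 139-fold. The control matters for the root value: against the day 13 root control the severe log2 fold change was 5.32 (SE 0.447), or 40.1-fold. In leaf the day 13 control gave 6.87.

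For Jcr4S00616.50 the log2 fold change was 1.04 (SE 0.266) in moderate leaves and 5.45 (SE 0.312) in severe leaves, a 43.7-fold higher level. In severe roots it was 4.78 (SE 0.598), or 27.4-fold, from a control level already near 487 CPM. On the deposited RPKM, whose sorted values are nearly the same in every library, the difference of mean log2 values in severe roots was 2.57. That scale caps a gene at ranks 1 and 2, which this gene held in severe roots. In moderate roots the log2 fold change was 0.23 (SE 0.511) on TMM-scaled counts, with overlapping libraries. That sign rests on single libraries: the value was -0.23 without the first day 13 control library and -0.59 without the first moderate library. Between moderate and severe drought the mean level of the gene differed 40.0-fold in leaf and 23.2-fold in root, without correction for the controls. The 2 drought groups also differ in day and pool size, which cannot be told apart from severity.

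For the dehydrin the log2 fold change was 1.04 (SE 0.241) in moderate leaves and 1.55 (SE 0.266) in moderate roots. In severe leaves it was -1.05 (SE 0.242), a level 2.07-fold lower than in the controls, and -0.53 against the day 13 control. In severe roots it was 0.51 (SE 0.261) on TMM-scaled counts. The sign in severe roots depended on the scale: the deposited RPKM of the gene was 945 and 803 in the severe root libraries and 1072 and 1042 in their controls, lower in both, a difference of mean log2 values of -0.28. The median log2 fold change of all genes tested in that contrast was -0.04 on TMM-scaled counts and 0.08 on RPKM. Its rank by RPKM was 56 and 77 in the severe root libraries against 43 and 46 in the controls. Mean levels under moderate drought were 2.86-fold those under severe drought in leaf and 1.94-fold in root, again between different days and pool sizes and without correction for the controls.

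The 3 genes had their highest levels in different groups. Both LEA genes were highest under severe drought in each organ, Jcr4S05404.40 at nearly the same level in leaf and root and Jcr4S00616.50 higher in root, at 13821 against 1109 CPM. The gap was narrower on the deposited RPKM, at means of 9148 in severe root and 2385 in severe leaf. The dehydrin was highest under moderate drought in each organ. Of the difference in severe effect between organs, leaf minus root, the log2 value was -0.76 (SE 0.622) for Jcr4S05404.40, 0.65 (SE 0.601) for Jcr4S00616.50 and -1.59 (SE 0.371) for the dehydrin, given with no test. These differences depended on the scale: on RPKM the severe effect in leaf and root was 5.13 and 2.57 for Jcr4S00616.50, and -0.64 and -0.28 for the dehydrin. The RPKM of Jcr4S00616.50 in severe roots is capped, since its 10591.6 in the first library is the highest value of the series. As a share of all counted reads it was 1.40% and 1.11% in severe roots against 0.05391% and 0.04925% in their controls.

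**Figure D3:**
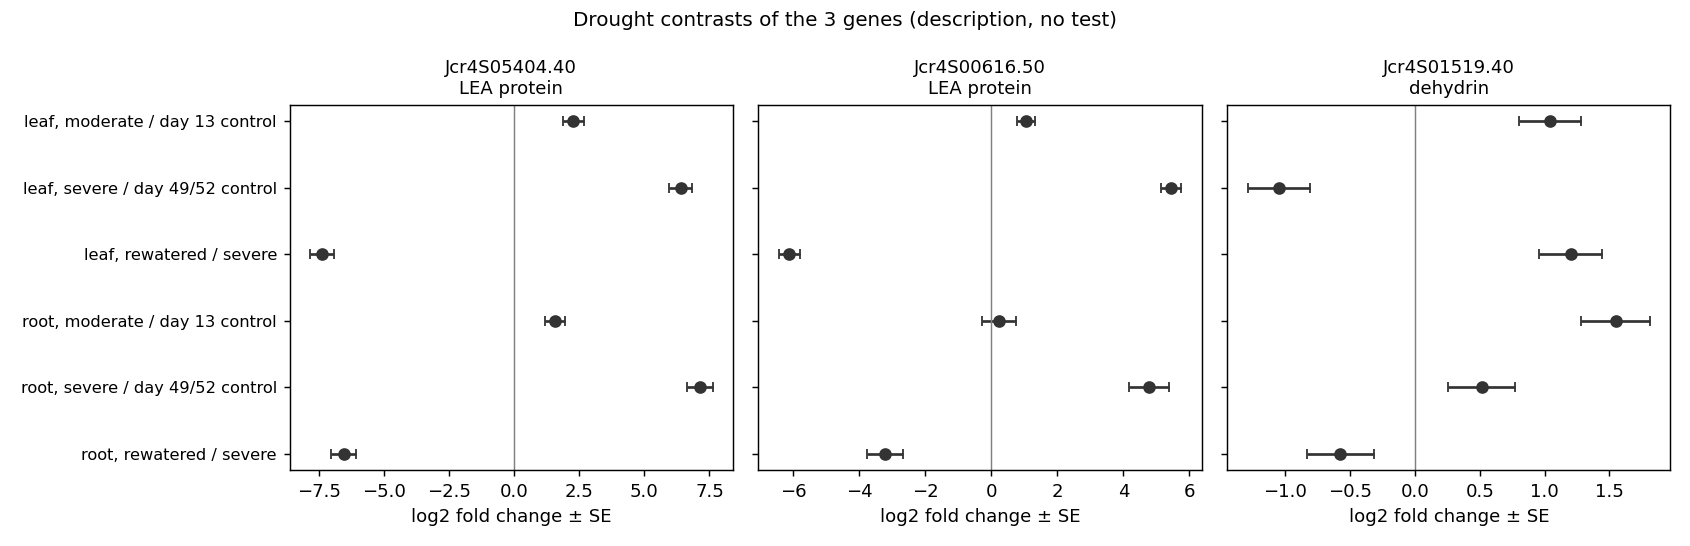
Log2 fold changes of the 3 genes in the 6 contrasts that hold a drought group, with bars of 1 SE and axes that differ between panels. Severe drought gave 6.39 and 7.12 in leaf and root for Jcr4S05404.40 and 5.45 and 4.78 for Jcr4S00616.50, and the dehydrin lay at -1.05 in severe leaf. The contrasts of severe and rewatered plants with controls share the day 49/52 control libraries.

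Rewatering left both LEA genes far under their severe drought levels, whereas the dehydrin in leaf was above its own. The rewatered mean of Jcr4S05404.40 was 0.579% of the severe mean in leaf and 0.998% in root, with log2 fold changes of -7.39 (SE 0.470) and -6.56 (SE 0.479). For Jcr4S00616.50 it was 1.39% in leaf and 10.2% in root, with -6.12 (SE 0.323) and -3.22 (SE 0.556). For the dehydrin it was 223% in leaf and 63.6% in root, with 1.20 (SE 0.242) and -0.58 (SE 0.261). On the deposited RPKM, which caps Jcr4S00616.50 in severe roots, the root values were -1.23 for that gene and -0.02 for the dehydrin. The median of all genes in that root contrast was 0.06 on TMM-scaled counts and -0.07 on RPKM. These values again describe the genes and were not tested.

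Whether the rewatered level had returned to that of watered plants was tested, since neither group holds a drought library. The control libraries are the same ones that served severe drought, so the test is not independent of the choice of genes. A control that is low by spread would raise both the drought response and the rewatered value. By edgeR's quasi-likelihood test, 0 of the 3 genes were called in leaf at an adjusted p under 0.05, where 4.56% of all tested genes were, and 1 of 3 had an unadjusted p under 0.05. DESeq2 also called 0 in leaf. In root edgeR called 0 of 3, against 17% of all tested genes, with 1 of 3 at an unadjusted p under 0.05, and DESeq2 called 1, Jcr4S00616.50.

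Rewatered leaves held Jcr4S05404.40 at 49.4% of the control mean (log2 -1.0, SE 0.467, adjusted p = 0.21), and both rewatered libraries lay under both controls. Rewatered roots held it at 145% of the control mean (log2 0.57, SE 0.456, adjusted p = 0.42). Jcr4S00616.50 was at 61.8% of the control mean in rewatered leaves (log2 -0.67, SE 0.264, adjusted p = 0.15). In rewatered roots it was at 288% of the control mean (log2 1.56, SE 0.522, adjusted p = 0.079), with both libraries above both controls. The summed root markers were higher in the same rewatered roots, at 569 to 685 CPM against 384 to 403 CPM with 3 of 8 genes called higher, and their part in the difference was not tested. For Jcr4S00616.50 DESeq2 gave an adjusted p of 0.01 for that value and the fit over all 22 libraries 0.019, and leaving out 1 library moved the log2 value between 1.13 and 1.88. The dehydrin was at 110% of the control mean in rewatered leaves (log2 0.15, SE 0.239, adjusted p = 0.72) and at 93.9% in rewatered roots (log2 -0.06, SE 0.260, adjusted p = 0.89), with overlapping libraries in both.

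The choice of control set the sign for the LEA genes in 4 cases. Against the day 0 leaf control, rewatered leaves gave a log2 fold change of 0.92 (adjusted p = 0.28) for Jcr4S05404.40 and 0.66 (adjusted p = 0.13) for Jcr4S00616.50, both positive. Against the day 13 leaf control Jcr4S00616.50 gave 0.20 (adjusted p = 0.66). Against the day 13 root control Jcr4S05404.40 gave -1.23 (adjusted p = 0.18), while Jcr4S00616.50 stayed positive at 1.49 (SE 0.521, adjusted p = 0.18), in a comparison where 0.0401% of all tested genes were called.

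In an interaction test added after the data had been seen, the rewatered effect on Jcr4S00616.50 differed between organs, with a log2 difference of -2.22 (leaf minus root, SE 0.610, adjusted p = 0.036) and 8.97% of all tested genes called. The effect was -0.69 in leaf and 1.53 in root in that fit. Leaving out any 1 of 6 libraries among the 8 involved took the adjusted p past 0.05, to as much as 0.13, with log2 differences between -2.61 and -1.86 throughout. For Jcr4S05404.40 the difference was -1.55 (SE 0.701, adjusted p = 0.18) and for the dehydrin 0.22 (SE 0.369, adjusted p = 0.76).

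Between the watered root controls of day 13 and day 49/52, edgeR called 1 of the 3 genes, a share near the 30.9% of all tested genes. Both root controls also served drought contrasts, so this test is not independent of the choice of genes. Jcr4S05404.40 fell 3.47-fold in root from day 13 to day 49/52 (log2 -1.80, SE 0.438, adjusted p = 0.02 by edgeR). That value rests on 137 and 39 reads in the day 13 libraries and 33 and 20 reads in the day 49/52 libraries. The call was lost without the first day 13 library (log2 -1.04, adjusted p = 0.085), without the first day 49/52 library (-2.05, adjusted p = 0.07) and without the second day 49/52 library (-1.60, adjusted p = 0.12). The summed root markers went from between 649.6 and 658 CPM to between 384 and 403 CPM over the same groups, and their part in the difference was not tested. Jcr4S00616.50 (log2 -0.07, adjusted p = 0.93) and the dehydrin (0.02, adjusted p = 0.96) had overlapping libraries at both ages.

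The day 13 and day 49/52 leaf controls also served drought contrasts, so their tests too are not independent of the choice of genes. In leaf, edgeR called 0 of the 3 genes between days 0 and 13, against 1.83% of all tested genes, and 0 between day 13 and day 49/52, against 0.513%. In each comparison 1 of 3 had an unadjusted p under 0.05, and DESeq2 called 1. Jcr4S05404.40 was 2.71-fold higher at day 13 than at day 0 (log2 1.44, SE 0.532, adjusted p = 0.2), and Jcr4S00616.50 was 1.83-fold higher at day 49/52 than at day 13 (log2 0.87, SE 0.266, adjusted p = 0.13), with libraries that did not overlap. The drift of Jcr4S05404.40 from day 13 to day 49/52 differed between organs by a log2 value of 2.28 (leaf minus root, SE 0.677, adjusted p = 0.027) in a test added after the data had been seen, where 21.6% of all tested genes were called. Leaving out any 1 of 5 libraries took that adjusted p past 0.05, with the log2 value between 1.52 and 2.97.

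Watered leaf and root differed most for Jcr4S00616.50. The watered controls of both organs also served drought contrasts, so tests between them are not independent of the choice of genes. The level of Jcr4S00616.50 was 37.5-fold lower in leaf than in root in the day 13 controls (log2 -5.23, SE 0.509, adjusted p = 4.7e-07) and 19.5-fold lower in the day 49/52 controls (log2 -4.29, SE 0.486, adjusted p = 2.2e-06). After rewatering it was 91.1-fold lower in leaf (log2 -6.51, SE 0.539, adjusted p = 7.9e-08). These comparisons called 58.7%, 63.0% and 63.2% of all tested genes, so a call by itself was common. The size was not tied to 1 library: leaving out each in turn kept the log2 value between -5.69 and -4.59, between -4.48 and -4.12, and between -6.92 and -6.16.

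Jcr4S05404.40 was 2.75-fold lower in leaf than in root in the day 13 controls (log2 -1.46, SE 0.465, adjusted p = 0.014). In a fit of those 4 libraries alone the adjusted p was 0.085, and leaving out the first leaf library or the first root library gave 0.15 and 0.29. In the day 49/52 controls its log2 difference was 0.82 (SE 0.492, adjusted p = 0.16), of the opposite sign, and after rewatering -0.73 (SE 0.499, adjusted p = 0.21). For the dehydrin the log2 difference between leaf and root was -0.55 (SE 0.262, adjusted p = 0.082), -0.05 (SE 0.261, adjusted p = 0.88) and 0.18 (SE 0.261, adjusted p = 0.58) in the same 3 comparisons. The first of these passed the threshold with DESeq2 (log2 -0.64, adjusted p = 0.032).

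**Figure D4:**
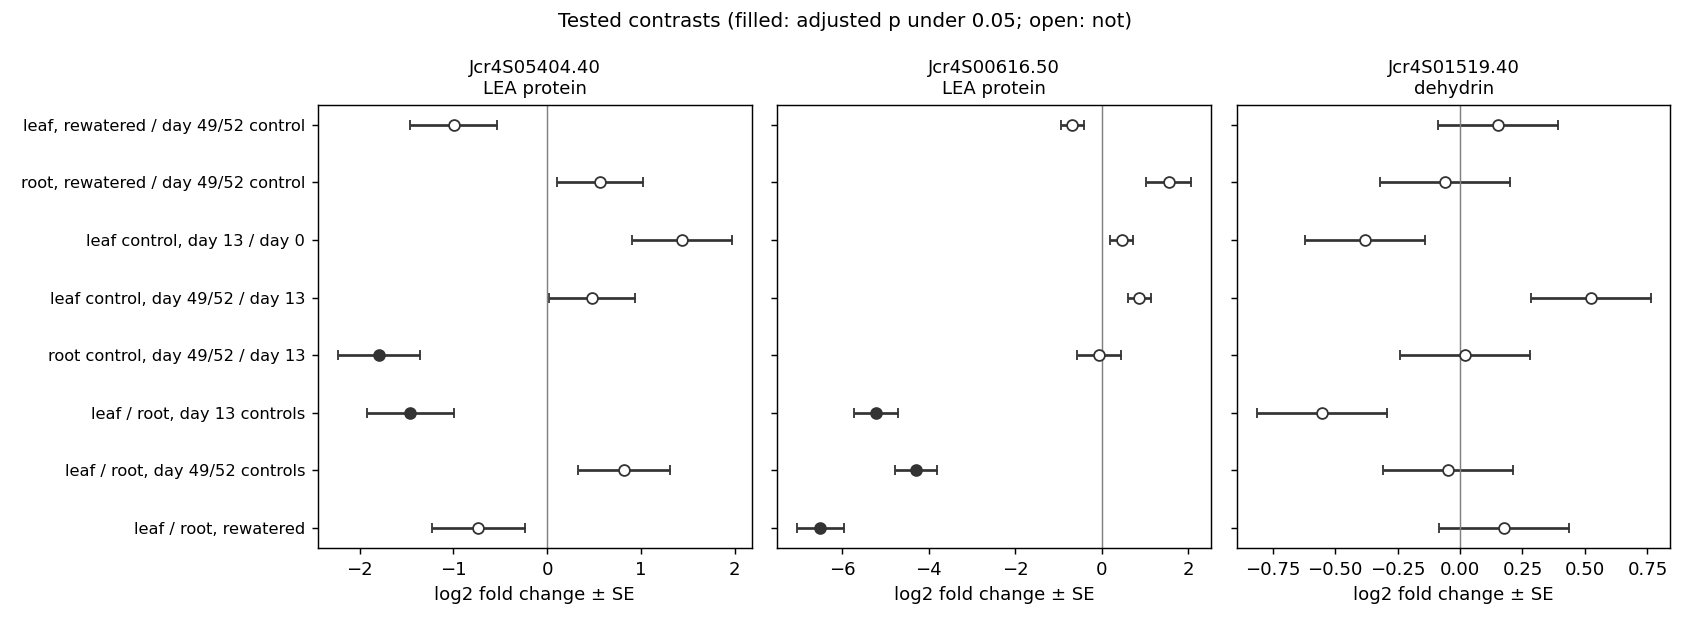
Log2 fold changes of the 3 genes in the 8 contrasts that hold no drought library, with bars of 1 SE, filled symbols where edgeR's adjusted p was under 0.05, and axes that differ between panels. Filled symbols are the leaf and root contrasts of Jcr4S00616.50 at -5.23, -4.29 and -6.51, and for Jcr4S05404.40 the root control contrast at -1.80 and the day 13 organ contrast at -1.46.

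Across the 22 libraries, log2(CPM + 1) of Jcr4S05404.40 and Jcr4S00616.50 correlated at a Pearson r of 0.682, at 0.986 over the 12 leaf and 0.826 over the 10 root libraries. The dehydrin correlated with them at 0.00833 and 0.194 over all libraries at -0.582 and -0.613 in leaf, and at 0.452 and 0.057 in root. The libraries share organs and treatments in pairs, so these values describe the patterns and carry no p. The genes were chosen by drought response. In each organ the severe libraries of both LEA genes lay far above the others, which weighs heavily on the r between them. Genes most like each in pattern were sought among 18516 described genes. For Jcr4S05404.40 they were the homeobox leucine zipper genes Jcr4S00108.20 (r = 0.952), Jcr4S03691.50 (0.952) and Jcr4S02546.10 (0.946), the inositol polyphosphate phosphatase gene Jcr4S00137.20 (0.952) and the ethylene-responsive element binding gene Jcr4S02314.40 (0.946). For Jcr4S00616.50 they were Jcr4S03361.40 (stromal membrane-associated, 0.980), the ADP-ribosylation factor Jcr4S00820.70 (0.974), Jcr4S00008.420 (octicosapeptide domain, 0.973), the acetyl-CoA acetyltransferase Jcr4S00742.70 (0.972) and the DNA polymerase epsilon subunit Jcr4S00117.60 (0.969). For the dehydrin the most similar were looser. They were the lipid binding gene Jcr4S01614.60 (0.828), the mannose-binding lectin Jcr4S00683.10 (0.763) and the galactose-binding gene Jcr4S02617.50 (0.756). Next came the vacuolar ATP synthase subunit Jcr4S01797.50 (0.738) and the DNA binding gene Jcr4S00968.20 (0.737). Some of the similar genes were near the floor, where log2(CPM + 1) varies little. Jcr4S03691.50 and Jcr4S02546.10 averaged 0.264 and 0.232 CPM, and Jcr4S01797.50 and Jcr4S00968.20 averaged 0.108 and 0.301 CPM.

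The series held 31 other gene models described as LEA or dehydrin, 15 of them as LEA hydroxyproline-rich glycoproteins. Of the 31, 20 averaged under 1 CPM over all libraries and 6 over 10 CPM. The 3 genes together took 97.6% and 97.1% of all LEA and dehydrin reads in the severe root libraries, 85.4% and 79.1% in the severe leaf libraries, and 54.0% to 65.7% in the leaf control libraries. In severe roots Jcr4S00616.50 alone took 89.8% and 89.6%, and the dehydrin 7.19% and 7.09%. In the leaf controls the dehydrin took between 52.7% and 64.7%.

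The shares of other LEA and dehydrin genes called under severe drought, both directions together, were close to those of all genes in the same comparison. In severe leaves 6 rose and 3 fell of 14 tested, 64.3% against 57.1% of all tested genes (27.6% higher and 29.5% lower), with a median log2 fold change of 0.36 against 0.03 over all genes. In severe roots 7 rose and 5 fell of 23, 52.2% against 45.1% (19.5% higher and 25.6% lower), with medians of 0.18 and -0.04. The filter keeps a gene with enough reads in 1 group alone, which can be the group where it is high. Over the alternative settings the count that rose ran from 3 to 7 in severe leaves and from 3 to 9 in severe roots. It was lower in both with a stricter filter. The count that fell in severe roots ran from 2 to 6. All 5 that fell in severe roots are described as hydroxyproline-rich glycoproteins, and none of the 7 that rose is. In severe leaves genes of that description were among those that rose and those that fell. The split was seen after the values and was not tested. Under moderate drought edgeR called 0 of 14 in leaf, against 0.00431% of all tested genes, with 2 at an unadjusted p under 0.05 and 0 called by DESeq2. In moderate roots 1 of 23 fell and 0 rose, against 2.74% of all tested genes, with 5 at an unadjusted p under 0.05. The remaining 17 in leaf and 8 in root had too few reads to be tested.

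After rewatering edgeR called 0 of 14 in leaf against the day 49/52 control, with 2 at an unadjusted p under 0.05 and 1 called by DESeq2, and in root 2 rose and 2 fell of 23, 17.4% against 17% of all tested genes. Against severe drought, 3 rose and 6 fell of 14 in rewatered leaves, where 59.3% of all tested genes were called, and 5 rose and 7 fell of 23 in rewatered roots, where 49.4% were. Between watered leaf and root, 4 were higher and 10 lower in leaf of 24 in the day 13 controls, and 7 higher and 12 lower in the day 49/52 controls. These are 58.3% and 79.2% of the list, against 58.7% and 63.0% of all tested genes.

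The 4 most abundant of these genes varied in direction under severe drought. Jcr4S01793.30, a LEA gene of 276 CPM on average, fell in severe leaves from 358 and 362 CPM to 147 and 151 CPM (log2 -1.30, SE 0.151, adjusted p = 4.5e-05). Jcr4S01590.130, at 66.9 CPM on average, rose in severe leaves from 5.09 and 7.33 CPM to 52.0 and 76.3 CPM (log2 3.35, SE 0.370, adjusted p = 3.5e-05), and in severe roots it gave 1.07 (adjusted p = 0.09). Jcr4S06898.40, described as a LEA14 gene, gave 0.33 (adjusted p = 0.27) in severe leaves and 0.18 (adjusted p = 0.53) in severe roots. Jcr4S00375.60, a hydroxyproline-rich LEA gene, fell in both severe leaves (log2 -0.67, adjusted p = 0.014) and severe roots (-0.72, adjusted p = 0.036).

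**Figure D5:**
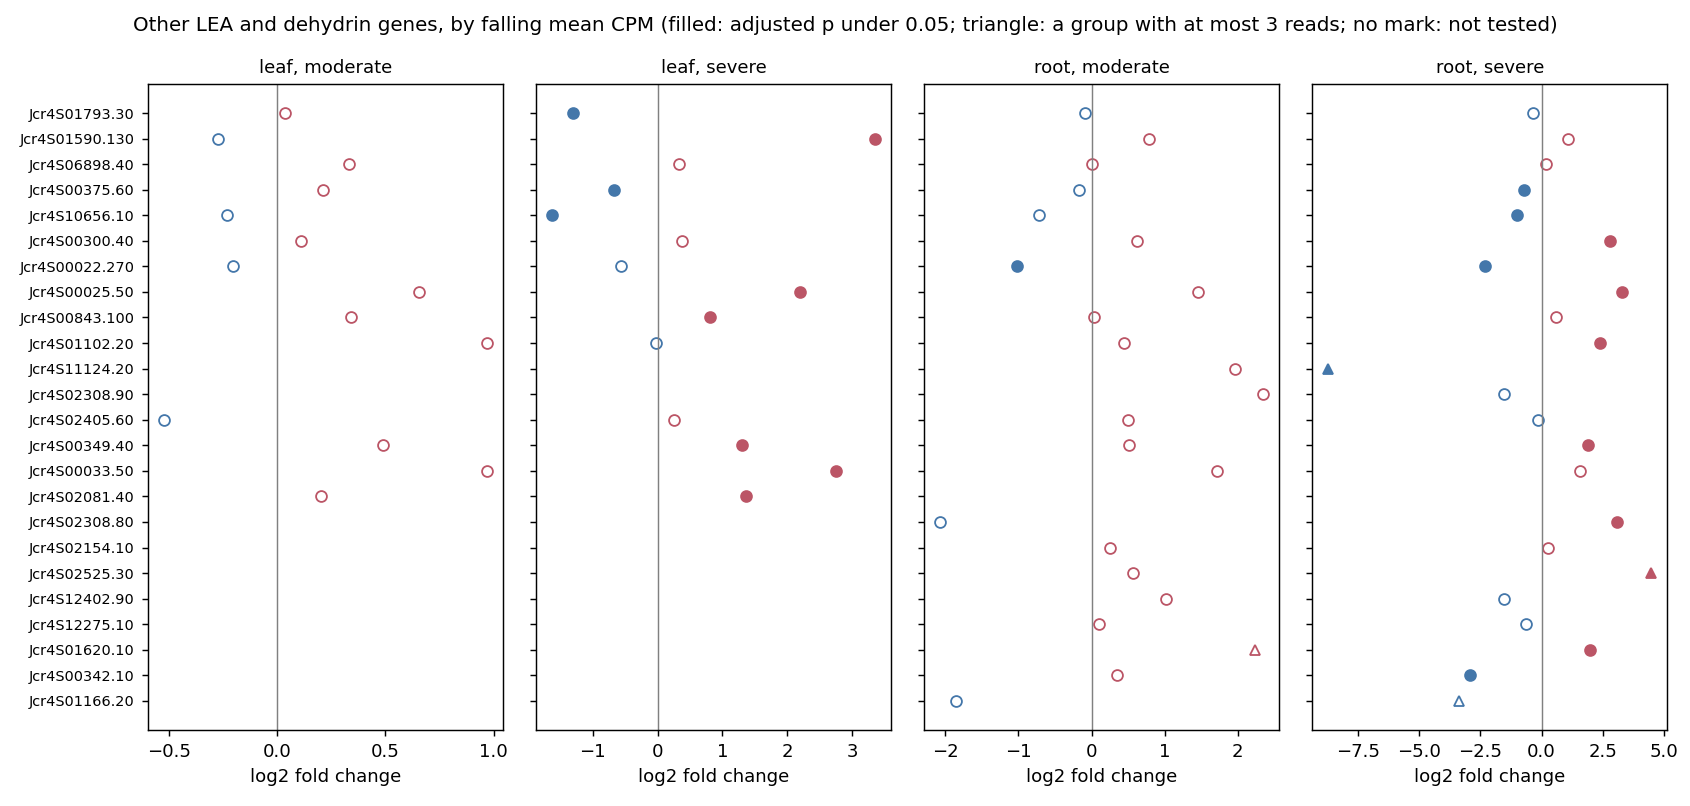
Log2 fold changes of the other LEA and dehydrin genes that passed the filter in leaf or root, ordered by mean CPM, in moderate and severe drought against the control of the same age. Filled symbols have an edgeR adjusted p under 0.05, triangles mark a group with at most 3 reads in all, and the axes differ between panels. In severe leaf 6 are filled to the right and 3 to the left, and in severe root 7 and 5. The triangle at the far left of severe root is Jcr4S11124.20, with 2 reads in the severe and 1070 in the control libraries.

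Most tested ABA genes, 17 gene models by description, were called under severe drought. Of 13 tested in leaf 10 rose and 1 fell (84.6% against 57.1%), and of 15 tested in root 7 rose and 4 fell (73.3% against 45.1%). In moderate roots 2 rose and 1 fell of 15 tested (20.0% against 2.74% of all tested genes). In moderate leaves edgeR called 0 of 13, against 0.00431% of all tested genes, with 6 at an unadjusted p under 0.05. The PP2C phosphatase gene Jcr4S07634.50, of a class that restrains ABA signalling and is itself raised by ABA, rose in severe leaves from 29.1 and 30.0 CPM to 504 and 441 CPM (log2 3.97, SE 0.324, adjusted p = 4e-06). In severe roots it rose from 26.1 and 31.1 CPM to 843 and 706 CPM (log2 4.71, SE 0.402, adjusted p = 0.00018), and in moderate roots by a log2 value of 3.42 (SE 0.379, adjusted p = 0.019). Of the other 3 most abundant ABA genes, the abscisic stress ripening-like Jcr4S00939.10 gave 0.61 (adjusted p = 0.0064) and -0.02 (adjusted p = 0.98) in severe leaves and roots, the ABA glucosyltransferase Jcr4S04656.30 gave 1.42 (adjusted p = 0.012) and -0.36 (adjusted p = 0.066), and the zeaxanthin epoxidase Jcr4S05819.20 gave 0.41 (adjusted p = 0.027) and -0.87 (adjusted p = 0.0063).

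Because LEA genes are known from drying seeds, seed genes were examined as a further list of 42 gene models, of which 7 rose and 5 fell of 20 tested in severe leaves and 7 rose and 6 fell of 26 in severe roots. These are 60.0% and 50.0% of those tested, against 57.1% and 45.1% of all tested genes. Its 4 most abundant genes, Jcr4S02648.10, Jcr4S02683.20, Jcr4S03548.10 and Jcr4S00065.140, are described as lipid transfer or protease inhibitor proteins, which leaves and roots also make. A subset of 24 genes for storage globulins, albumins, oleosins and seed maturation proteins was therefore formed after the descriptions were seen. It summed to between 57.5 and 67.6 CPM in the day 49/52 leaf controls and 111 to 123 CPM in severe leaves. In root it summed to between 37.6 and 42.1 CPM in the day 49/52 controls and 161 to 288 CPM under severe drought. The day 13 root controls gave 70.9 to 113.5 CPM. The sum was thus higher in the severe libraries than in these controls, as both LEA genes were. The full list of 42 was not: it summed to between 749 and 1032 CPM in the day 49/52 leaf controls and 803 to 867 CPM in severe leaves, and to between 1410 and 1453 CPM and 981 to 1697 CPM in root. The higher sums of the subset rest in large part on 1 gene. The late seed maturation gene Jcr4S08363.20 made up 47.5 CPM of the sum in severe leaves and 152 CPM in severe roots on average. The genes for 2S albumins reached at most 0.144 CPM in any library. No read was counted for 9 of the 24 genes in severe leaves and for 7 in severe roots. The part of seed genes in the LEA levels was not tested.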

How the data were processed

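RNA was measured in 22 libraries of unstranded cDNA (TruSeq RNA v2 kit, 400 ng RNA, single-end reads of 50 bp), per the labels' protocols. The authors deposited whole-number read counts per gene model, not normalized, and an RPKM table. The deposited RPKM values have a minimum of 1, and their sorted columns differ by at most 0.7 between libraries, as quantile normalization would give. The sources used here give no aligner, counter, genome build or rule for multi-mapping reads, so reads of near-identical LEA copies and of antisense or overlapping genes cannot be told apart. No identifier matched the RefSeq gene table, so positions are not given.

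The deposited counts were fitted with edgeR 4.0.16 under R 4.3.3, using filterByExpr on group, TMM scaling and a robust quasi-likelihood fit of group means over the 12 leaf libraries (23200 genes), the 10 root libraries (24924) or all 22 (25939, for contrasts between organs). P-values are two-sided, adjusted by Benjamini-Hochberg over all genes of a fit, and called under 0.05. SEs come from the F statistic. DESeq2 1.42.0 was an alternative, and the steps were tested on simulated data. Replicates within every group differed beyond counting error (chi-square over degrees of freedom 11.3 to 145). Groups follow the labels' organ, treatment and day. Same-numbered replicates were not paired: correlations of their deviations ran from -0.238 to 0.275 in leaf and -0.224 to 0.201 in root.

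The 3 genes and the lists (patterns on the descriptions) were chosen with earlier results of these data known. Besides the 3 genes, the text names the 4 genes of highest mean CPM in the LEA, ABA and seed lists and the 5 genes most correlated with each of the 3 by log2(CPM + 1) over the 22 libraries. Jcr4S11124.20, Jcr4S08363.20 and the 2S albumin genes were named after their values were seen. Of the leaf and root marker lists only sums are given. Leaving out each library, other scalings, filters and controls, a replicate block and the deposited RPKM were tried as alternatives.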

Additional observations from a re-analysis of the deposited data

Results flagged for a closer look

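The effect of rewatering on Jcr4S00616.50 differed between organs, by a log2 difference of -2.22 (leaf minus root, adjusted p = 0.036 by edgeR, in a test added after the data had been seen). In that test 8.97% of all tested genes were called, and the call rests on single libraries. Both rewatered leaf libraries lay under both of the later leaf controls, and both rewatered root libraries above both of the later root controls. The direction in leaf depended on the control. Rewatered leaves gave a log2 fold change of 0.20 against the day 13 leaf control and 0.66 against the day 0 leaf control. Rewatered roots stayed positive against the day 13 root control, at 1.49.

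The change of Jcr4S05404.40 in watered plants from day 13 to day 49/52 differed between organs, by a log2 difference of 2.28 (leaf minus root, adjusted p = 0.027 by edgeR, also added after the data had been seen). In that test 21.6% of all tested genes were called, and this call too rests on single libraries. Root levels went from 1.86 to 0.533 CPM and leaf levels from 0.688 to 0.951 CPM, and the leaf libraries of the 2 ages overlapped.

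The dehydrin Jcr4S01519.40 moved in opposite directions under severe drought, with a log2 difference of -1.59 (leaf minus root), since both severe leaf libraries lay under both leaf controls and both severe root libraries above both root controls. The difference was not tested, because drought contrasts chose the gene. By deposited RPKM the severe root libraries lay under their controls as well, so the direction in root depended on the scale. Plain shares of counted reads, without TMM, went the way of the TMM-scaled counts. They were 0.112% and 0.0879% in severe roots against 0.0793% and 0.0784% in the controls. In severe leaves they were 0.0407% and 0.0314% against 0.0786% and 0.06505%.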

How the results depend on the processing

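All values here are log2 fold changes, with edgeR's adjusted p in parentheses where there is a test. With no filter on low counts, rewatered against watered leaves gave -0.97 (0.019) for Jcr4S05404.40 and -0.64 (0.014) for Jcr4S00616.50, and rewatered roots gave 1.63 (2.2e-10) for Jcr4S00616.50. With no filter the watered leaf comparisons also passed, at 1.43 (0.0012) for Jcr4S05404.40 from day 0 to day 13 and 0.87 (5e-04) for Jcr4S00616.50 from day 13 to day 49/52. The leaf and root comparisons gave 0.82 (0.033) for Jcr4S05404.40 at day 49/52 and -0.53 (0.045) for the dehydrin at day 13. The organ difference without a filter was -1.60 (0.008) for Jcr4S05404.40 after rewatering and 0.91 (0.031) for Jcr4S00616.50 between the later controls. The dehydrin changed sign at values near 0, to 0.0088 in rewatered roots and -0.034 between the root controls, and Jcr4S05404.40 in rewatered against severe leaves was -7.34. DESeq2 called 1.55 (DESeq2 adjusted p = 0.01) for Jcr4S00616.50 in rewatered roots, 1.47 (0.044) for Jcr4S05404.40 between leaf days 0 and 13, 0.85 (0.036) for Jcr4S00616.50 between the later leaf controls and -0.64 (0.032) for the dehydrin between day 13 organs. Size-factor scaling in edgeR gave the last of these as -0.64 (0.049). The fit over all 22 libraries gave 1.53 (0.019) for Jcr4S00616.50 in rewatered roots, and a fit of the 4 day 13 controls alone gave -1.50 (0.085) for Jcr4S05404.40. The causes were not tested.

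With another control, rewatered leaves gave 0.92 (day 0) for Jcr4S05404.40 and 0.20 (day 13) and 0.66 (day 0) for Jcr4S00616.50, rewatered roots gave -1.23 (day 13) for Jcr4S05404.40, and severe leaves against day 13 gave 6.87, 6.32 and -0.53 for the 3 genes in their usual order. Severe roots against day 13 gave 5.32 for Jcr4S05404.40. On deposited RPKM, an alternative chosen after seeing the data, Jcr4S05404.40 gave 5.91 in severe leaves, 6.39 in severe roots, and -6.27 and -6.02 in rewatered against severe leaves and roots. Jcr4S00616.50, capped on that scale in severe roots, gave 2.57 in severe roots and -5.73 and -1.23 after rewatering. The dehydrin gave -0.64 in severe leaves, -0.28 in severe roots, and 0.86 and -0.022 after rewatering.

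Leaving out 1 library at a time moved Jcr4S05404.40 between -2.28 and -1.04 in the older against the younger root controls, -2.14 and -0.70 between organs at day 13, 1.07 and 2.33 in moderate roots, and -7.42 and -7.31 in rewatered against severe leaves. It moved Jcr4S00616.50 between -0.53 and 0.60 in the root controls, 0.74 and 1.44 in moderate leaves, -0.59 and 0.89 in moderate roots, with -0.23 without the first day 13 control, and -6.41 and -5.73 and -3.70 and -2.90 in rewatered against severe leaves and roots. It moved the dehydrin between -0.34 and 0.17 in rewatered roots, -0.23 and 0.29 in the root controls, and -0.83 and -0.28, -0.20 and 0.090, and -0.14 and 0.38 between organs at day 13, at day 49/52 and after rewatering. It also moved the dehydrin between 0.67 and 1.34 in moderate leaves, between -0.92 and -0.35 in rewatered against severe roots, and between -0.075 and 0.45 in the organ difference of the rewatering effect.

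With the replicate number as a block, which the data do not pair, the calls of the 3 genes were as without it, with 1.56 (0.11) for Jcr4S00616.50 in rewatered roots and -1.75 (0.017) for Jcr4S05404.40 between the root controls. Counts of all genes called moved more: 1059 in rewatered leaves became 3558 without a filter, 2748 with DESeq2 and 2411 against day 13, and 4228 in rewatered roots became 6809 without a filter and 10 against day 13. The 425 between leaf days 0 and 13 became 2128 without a filter and 1540 with DESeq2, and the 119 between the later leaf controls 1965, 1543 and, with the block, 18. The single gene of moderate leaves became 689 without a filter and 280 with DESeq2, and the 682 of moderate roots 4311 and 3148. Leaving out 1 library moved the counts, and so the background shares, as widely: 55 (without the second rewatered library) to 4484 (without the first control) in rewatered leaves, and 0 (without the second day 49/52 control) to 3258 in rewatered roots. The range was 1595 (without the second day 49/52 library) to 9105 between the root controls, 2 to 401 and 6 to 792 between the earlier and later leaf controls, 4 to 57 in moderate leaves and 2 (without the second day 13 control) to 4210 (without the first) in moderate roots. In severe roots it was 6640 to 7292, where 11248 were called with all libraries, and the organ differences gave 691 to 3287 after rewatering and 3068 to 7081 between the controls. With a stricter filter the count of other LEA genes higher was 3 in place of 6 in severe leaves and 4 in place of 7 in severe roots. With 2 libraries a group and 12 to 46 reads behind the leaf control values of Jcr4S05404.40, its low levels are the least precise.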
